A study of Mus musculus with 12 samples.

Results

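The transcripts described here are 10 genes that mark retinal ganglion cells or encode neurofilaments, read out of a table of 56748 genes in whole mouse retina and in rod TRAP RNA. They were chosen by gene symbol, and all 10 were found. They are the neurofilament genes Nefl, Nefm and Nefh, the ganglion cell genes Rbpms, Pou4f1, Pou4f2, Thy1 and Sncg, the transcription factor gene Isl1 and the growth-cone gene Stmn2. RNA from 2-week-old mice was sequenced in 12 libraries, 3 for each of 4 groups. The study asked which mRNAs rods translate and how the loss of the tyrosine phosphatase Shp2, encoded by Ptpn11, from rods alters them.

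The control group (Het) carried 1 floxed and 1 wild-type Shp2 allele, and the knockout group (KO) carried floxed Shp2 on both alleles. Mice of both genotypes carried the i75 rod-Cre, in which a rhodopsin promoter drives Cre recombinase, so the controls also lost 1 Shp2 allele in rods. All of them were homozygous for RiboTag, a floxed Rpl22 gene that after Cre recombination encodes a ribosomal protein with a hemagglutinin (HA) tag. The titles of the control samples read wt, whereas their genotype entry names the heterozygote. Each genotype was sequenced as whole-retina RNA (Het retina and KO retina) and as the RNA that HA antibody pulled down with tagged ribosomes (Het rod and KO rod). This pull-down is translating ribosome affinity purification, or TRAP. Mice were perfused with cycloheximide, which holds ribosomes on mRNA, and 100 ng RNA went into each cDNA reaction. The labels do not say which libraries came from separate animals, so a p-value here measures the spread between these libraries, some of which may be technical.

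Retinal ganglion cells are the output neurons of the retina, and their axons form the optic nerve. Neurofilaments fill these large axons and set their calibre, and they assemble from a light (Nefl), a medium (Nefm) and a heavy (Nefh) chain together with internexin. Rhodopsin-driven Cre is meant to act in rods and to leave the ribosomes of ganglion cells untagged. Tagging in ganglion cells was not measured, so carried-over RNA, stray tagging and expression in rods cannot be told apart in what rod TRAP RNA holds of these transcripts.

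The values analysed are whole numbers proportional to the reads of a gene, scaled so that libraries of 1 fraction share nearly the same total, 14525527 to 14527992 in retina and 16263948 to 16265259 in rods. The reads behind them were estimated at 9980000 to 19220000 in 5 retina libraries and at 11890000 to 25270000 in the 6 rod libraries, and the scaling of Het retina replicate 3 could not be resolved. The rod label held, since 10 of 10 rod marker genes were higher in Het rods than in Het retina, with a median log2 fold change of 1.86. For Ptpn11, Het rods had values of 2511, 2439 and 2431, and KO rods had 1735, 2139 and 1971. Every KO rod library was below every Het rod library, but the fall of 0.26 on the log2 scale did not pass (adjusted p = 0.064, limma). Lens genes took between 0.000723% and 4.8% of the retina values and at most 0.073% in rods, so lens RNA differed between libraries.

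A pair of sequence features bears on how single members can be read, and the stretches that show them are printed from the GENCODE M21 annotation of mouse genome build GRCm38, 5′ to 3′ on the coding strand. The first is the close likeness of Pou4f1 and Pou4f2, 2 POU-domain transcription factors that ganglion cells need to mature. Of 120 coding bases in the printed stretch, 116 match and 4 differ, and the 4 are in capitals. The Pou4f1 stretch is at chr14:104466005-104466124, minus strand, in exon 2 of 3, and the Pou4f2 stretch at chr8:78435013-78435132, minus strand, in exon 2 of 2.
Pou4f1: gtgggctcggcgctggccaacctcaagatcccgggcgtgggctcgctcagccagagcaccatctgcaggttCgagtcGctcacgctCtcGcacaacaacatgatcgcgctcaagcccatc
Pou4f2: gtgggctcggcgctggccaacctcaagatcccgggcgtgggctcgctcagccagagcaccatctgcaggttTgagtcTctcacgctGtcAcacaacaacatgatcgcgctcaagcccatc
Runs of 50 bases shared by both genes made up 0.5% of those in the Pou4f1 transcript and 0.7% of those in the Pou4f2 transcript, so nearly all of each transcript is its own.

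The other is the coding repeat of Nefh, whose protein ends in a long repetitive tail. The printed stretch is bases 1957 to 2136 of the 3270 coding bases, at chr11:4940482-4940661, minus strand, in exon 4 of 4. Capitals mark the unit CCAGCTGAG, which was searched in frame on the coding strand.
Nefh: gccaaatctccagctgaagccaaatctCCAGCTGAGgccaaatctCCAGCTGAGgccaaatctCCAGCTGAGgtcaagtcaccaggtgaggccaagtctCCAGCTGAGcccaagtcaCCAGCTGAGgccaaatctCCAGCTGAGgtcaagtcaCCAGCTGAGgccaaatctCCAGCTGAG
The unit occurs 21 times between coding bases 1606 and 2418 of Nefh, of which 8 are in the stretch, and 0 times in the coding sequences of Nefl and Nefm. No run of 50 bases in the Nefh transcript was found in the transcript of any other gene. Nefl and Nefm stand otherwise. Nefl (chr14:68083863-68089095, plus strand) lies inside the annotated span of Nefm (chr14:68082590-68124846, minus strand), and 31.8% of its 50-base runs are antisense to a Nefm transcript. Whether reads were counted by strand is not given in the sources used here, so the split of reads between these 2 genes is uncertain.

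In whole retina the members were well expressed. Nefl had values of 4172, 4649 and 4946 in the Het libraries and of 4785, 5071 and 3542 in the KO libraries. Pou4f2, the lowest member, had values of 112, 101 and 100 in Het retina and of 116, 115 and 89 in KO retina. To compare genes, values were divided by the length of the longest coding transcript. On this scale of value per kilobase, Nefl (1358 ± 115.5, SD, n = 3), Thy1 (1263 ± 428.7) and Sncg (1111 ± 446.7) came first in Het retina, and their libraries overlapped. Thy1 encodes a surface glycoprotein and Sncg gamma-synuclein. Stmn2, a tubulin-binding protein of growing axons, followed at 608.3 ± 32.3 per kilobase. Nefm came next at 436.1 ± 18.1 and Isl1 at 303.3 ± 27.2, each apart from its neighbours in the order. Isl1 is also present in some bipolar and amacrine cells. Nefh (219.7 ± 33.1) and the RNA-binding protein gene Rbpms (204.6 ± 9.67) overlapped. The POU-domain genes Pou4f1 (68.5 ± 3.04) and Pou4f2 (32.6 ± 2.08) were lowest and lay apart. In KO retina the order was the same except that Nefh and Rbpms changed places, again with overlapping libraries, and that Stmn2 and Nefm overlapped.

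**Figure D1:**
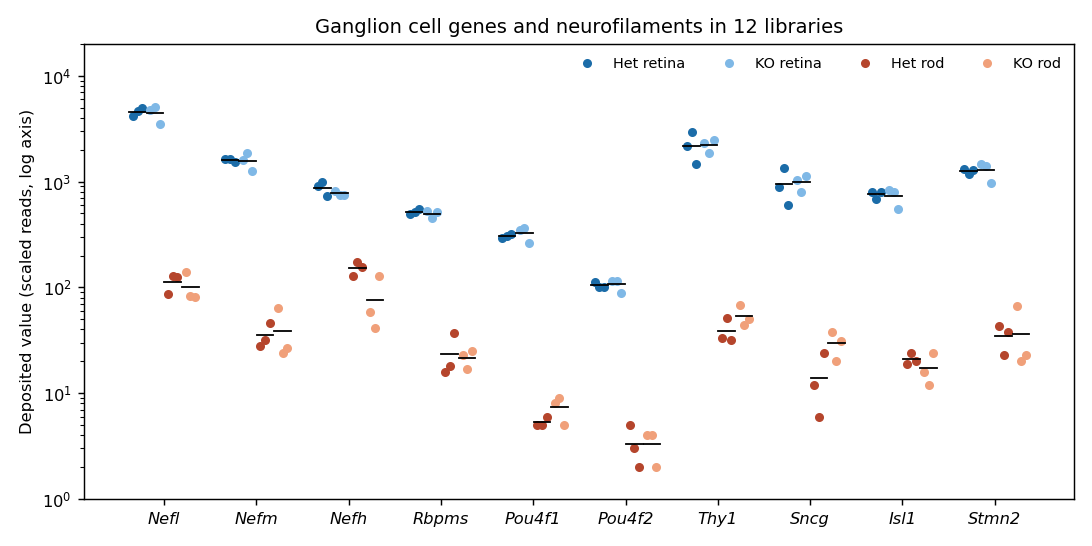
Deposited value of each member in the 12 libraries, on a log axis, with 1 point per library and a black bar at the mean of each group of 3. Every rod point of a gene lies below every retina point of that gene, and the gap is smallest for Nefh in Het rods.

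Rod TRAP RNA held little of these transcripts. For each of the 10 members every rod library was below every retina library, and over all members the rod values ran from 2 to 173 and the retina values from 89 to 5071. In Het rods against Het retina 10 of 10 members fell, with a median log2 fold change of -5.00, whereas over all 16110 genes tested the median was -0.11. A call needed an adjusted p of less than 0.05 with a log2 fold change beyond 0.5. By this rule 58.2% of those genes were called, 36.8% lower and 21.4% higher, and 68.6% had libraries that did not overlap. Fractions had been scaled separately by the authors, so trimmed mean of M-values (TMM) factors were estimated over the 6 libraries of each comparison before the fit. Scaled by library total alone, the median over all genes was -0.51, with 1157 genes called higher and 7417 lower in place of 3453 and 5923, and the members still fell. Fold changes were taken on log2(value + 2), which understates the change of low genes.

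Among the neurofilament chains, Nefl was at 87, 127 and 124 in the Het rod libraries and at 139, 82 and 81 in the KO rod libraries. It fell by 5.09 ± 0.18 (SE) on the log2 scale in Het rods against Het retina, which is 34.1-fold lower (limma, adjusted p = 2.6e-07). Nefm had values of 28, 32 and 46 in Het rods and fell by 5.21 ± 0.20 there. These 2 chains behaved alike in every group. The ratio of Nefm to Nefl within a library lay between 0.309 and 0.392 in Het retina and between 0.252 and 0.371 in Het rods. In KO libraries it lay between 0.336 and 0.364 in retina and between 0.293 and 0.46 in rods. The split of reads between these overlapping genes is uncertain, and its part in this likeness was not tested.

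Nefh fell much less. Its values were 904, 994 and 734 in Het retina and 128, 173 and 157 in Het rods, so it had the highest value of the members in all 3 Het rod libraries, whereas its mean value in Het retina was the sixth. The difference was -2.26 on the log2 scale (SE 0.18, 4.79-fold lower, adjusted p = 1.1e-05). Its 95% interval of -2.67 to -1.85 did not reach that of any other member, the nearest being Pou4f2 with -4.85 to -3.46. Among genes called lower in Het rods 35.8% fell less than Nefh did, against 73.9% or more for each of the other 9 members. Per kilobase, Nefh (38.2 ± 5.71) and Nefl (33.3 ± 6.59) overlapped in Het rods.

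**Figure D2:**
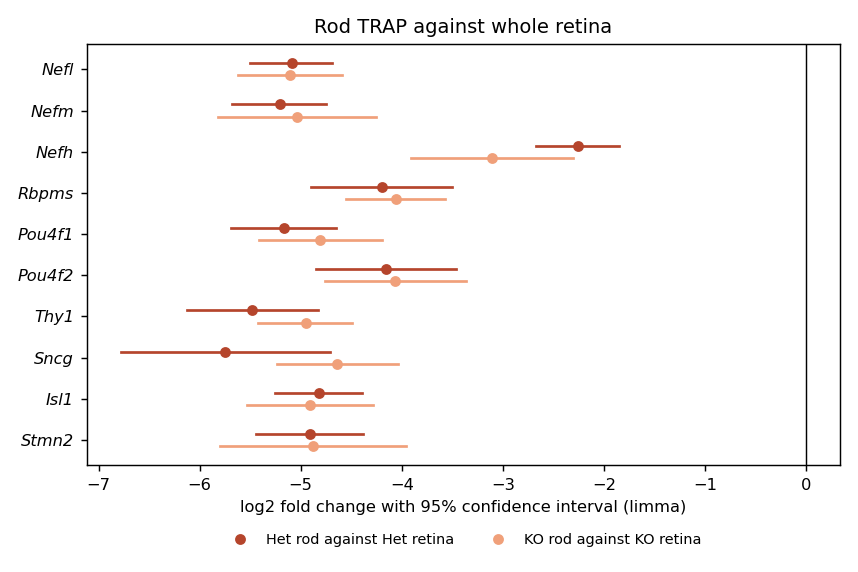
Log2 fold change of each member in rod TRAP against whole retina, with its 95% confidence interval from limma, for Het (dark) and KO (light) libraries, 3 against 3. Nefh stands nearest to 0 in both genotypes, at -2.26 in Het and -3.11 in KO, and the other members lie between -5.75 and -4.06.

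The ratio of Nefh to Nefl within a library needs no scaling between libraries. It was 0.217, 0.214 and 0.148 in Het retina and 0.171, 0.148 and 0.213 in KO retina. It was 1.47, 1.36 and 1.27 in Het rods, all above every retina library. KO rods did not form 1 level, with ratios of 0.424, 0.5 and 1.57, the last above all Het rods. The Het rod and Het retina ratios differed by 2.84 on the log2 scale (exact permutation test, two-sided, p = 0.1, the smallest that 3 against 3 allows, and 0.3 after Benjamini-Hochberg adjustment over 12 ratio comparisons). The KO and Het rod ratios overlapped, with a difference of -0.98 (exact permutation p = 0.4, adjusted 0.667).

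**Figure D3:**
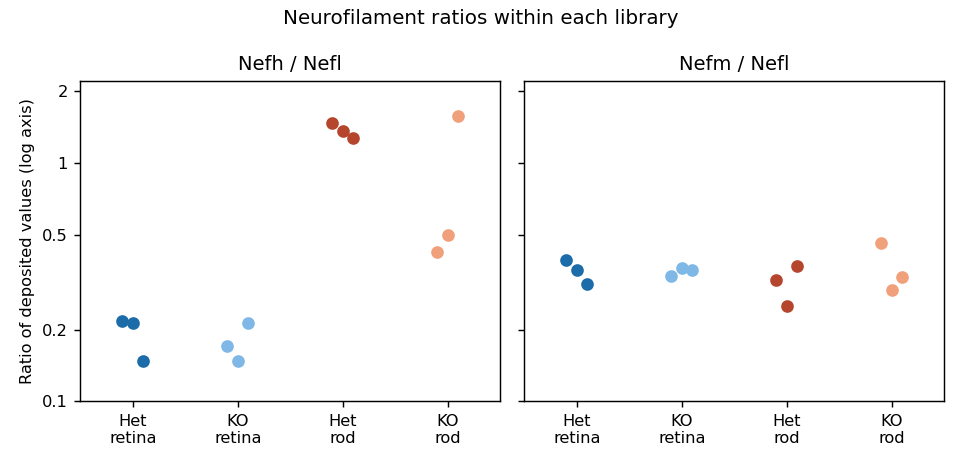
Ratio of Nefh to Nefl (left) and of Nefm to Nefl (right) within each library, on a shared log axis, with 1 point per library. Nefh exceeds Nefl in the 3 Het rod libraries and in KO rod replicate 3 only, and the ratio of Nefm to Nefl stays between 0.252 and 0.46 in all 12 libraries.

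The gene beside Nefh was read after these values were seen. Thoc5, a gene for a subunit of the mRNA export complex THO, lies 9886 bases away on the other strand and was higher in rods. Its values were 1025, 1054 and 885 in Het retina and 1749, 1837 and 2413 in Het rods, a log2 fold change of 1.25 ± 0.15 (SE, adjusted p = 1.2e-04, limma). The Het rod library with the highest Nefh was not the one with the highest Thoc5, but in KO rods replicate 3 was highest in both, with Thoc5 at 1283, 1527 and 2401. Whether reads from Thoc5 entered the Nefh count was not tested. A neighbour higher in rods was not particular to Nefh. Gtf2e2 lies 5469 bases from Rbpms on the other strand. Its log2 fold change in Het rods against Het retina was 1.19 ± 0.17 (SE, adjusted p = 3.3e-04, limma).

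The remaining ganglion cell genes fell by a similar extent. Sncg had values of 891, 1352 and 597 in Het retina and of 12, 6 and 24 in Het rods, and its log2 fold change of -5.75 (SE 0.45) was lower than that of all 61 tested markers of non-rod cell types. Thy1 was at 33, 51 and 32 in Het rods and fell by 5.48 ± 0.28 (SE) on the log2 scale. The transcription factor genes were nearly absent. Pou4f1 had values of 5, 5 and 6 in Het rods, and Pou4f2 of 5, 3 and 2, which correspond to an estimated 4 to 8 and 2 to 5 reads. Log2 fold changes at that depth, -5.17 for Pou4f1 and -4.16 for Pou4f2, depend on the pseudocount. Isl1 (-4.82 ± 0.19, SE) and Stmn2 (-4.91 ± 0.23) were close to Nefl. Rbpms had values of 16, 18 and 37 in Het rods, the last apart from the others, with a log2 fold change of -4.20 ± 0.30.

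As a share of the library total, the members together took 0.0906% of Het retina and 0.00271% of Het rods, so 2.99% ± 0.392 (SD, n = 3) of their retina share was found in rods. The figure for KO was 2.65% ± 0.734. By gene, Nefh kept 13.0%, 17.6% and 16.0% of its retina share in the 3 Het rod libraries, and the group means of the other 9 members ran from 1.32% (Sncg) to 4.06% (Rbpms). Lists of other cell types ranged widely in Het rods. Horizontal cell genes kept 2.17%, amacrine cell genes 3.42%, Muller glia genes 3.78%, endothelial genes 2.92%, microglia genes 2.01%, astrocyte genes 1.09% and lens genes 1.41%, whereas pigment epithelium (RPE) genes kept 7.37%, cone genes 35.8% and bipolar cell genes 42.4%. Without Otx2, which is also a photoreceptor gene and was left out after its values were seen, the bipolar list kept 24.0%. Prkca, which stayed on that list, had values of 5929, 4174 and 5181 in Het retina and of 5125, 4111 and 3721 in Het rods. Of the 10 bipolar genes 8 were called lower in Het rods, beside 36.8% of all genes. Their median log2 fold change was -5.04, so neither bipolar share describes the typical gene of this list. These shares are descriptions and were not tested against each other.

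In KO rods against KO retina 10 of 10 members fell as well, with a median log2 fold change of -4.84, where 62.2% of 16121 genes were called, 36.5% were called lower and 72.1% had libraries that did not overlap. Nefh was again the smallest fall (-3.11, SE 0.35, adjusted p = 6.9e-05), with values of 819, 752 and 753 in KO retina against 59, 41 and 127 in KO rods. KO rod replicate 3 was more than 2-fold above the other 2 libraries for this gene. The 95% interval of Nefh, -3.91 to -2.31, overlapped those of Rbpms and Pou4f2. The other log2 fold changes lay between -5.11 for Nefl and -4.06 for Rbpms. KO rod replicate 1 held the highest KO rod value for 5 of the 10 members, among them Nefl at 139, Nefm at 64 and Stmn2 at 66.

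Loss of both Shp2 alleles in rods was compared first within rod TRAP RNA. In this comparison 0 of the 8 members tested were called (limma), where 13.1% of 13055 genes were called, 11.2% higher and 1.91% lower. Pou4f1 and Pou4f2 stayed below the filter on low values. At an unadjusted p below 0.05 stood 3 of the 8 members, Nefh, Sncg and Thy1, beside 38.4% of all genes. After TMM scaling the groups overlapped for all 8, where 44.0% of all genes had groups that did not overlap.

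Nefh had the lowest log2 fold change of the 8. Its values of 59, 41 and 127 in KO libraries were all below those of 128, 173 and 157 in Het libraries, but KO replicate 3 missed the lowest Het library by 1 and overlapped it after scaling. The log2 fold change was -1.06 (SE 0.35, 95% interval -1.88 to -0.24, adjusted p = 0.064). Without KO rod replicate 3 it was -1.48 with an adjusted p of 0.0018 and was called. That was the lowest adjusted p over 16 alternative settings. Among these the log2 fold change ran from -1.61 to -0.74 and the adjusted p reached 0.19 (limma).

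Sncg went the other way, from 12, 6 and 24 in Het rods to 38, 20 and 31 in KO rods, where 2 of the 3 KO libraries were above all Het libraries. Its log2 fold change was 1.18 (SE 0.42, 95% interval 0.27 to 2.09, adjusted p = 0.059). Without Het rod replicate 3 it was 1.60 and was called (adjusted p = 0.025), and without Het rod replicate 2 it was 0.76 and was not (adjusted p = 0.17). Without the filter on low values it was called (adjusted p = 0.030). For Thy1, Het rods had 33, 51 and 32 and KO rods 68, 44 and 50 (log2 fold change 0.55, SE 0.25, adjusted p = 0.13). Nefl (-0.10), Nefm (0.09), Rbpms (0.03), Isl1 (-0.22) and Stmn2 (-0.01) differed by less than the spread between libraries, with 95% intervals between -0.97 and 0.94 in all 5.

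Genotype cannot be told apart from a trend with GC content in the rod libraries. The level of the GC-richest genes over that of the GC-poorest, centred on the comparison, was -0.81, -0.23 and -0.42 on the log2 scale in Het rods against 0.42, 0.76 and 0.28 in the KO libraries. Nefh, Sncg and Thy1 are among the GC-rich members, with 58.39%, 56.57% and 55.79% GC in the transcript, as is Nefm with 57.77%. With the trend subtracted, the log2 fold change was -1.61 for Nefh (adjusted p = 0.10), 0.77 for Sncg (adjusted p = 0.30) and 0.21 for Thy1 (adjusted p = 0.64). Genes called over the whole comparison numbered 1710 before and 387 after this step. The amacrine list took 0.00373% to 0.00408% of Het rods and 0.00435% to 0.00588% of KO rods. Its 1 gene called in this comparison was Slc6a9, with 275, 263 and 208 in Het rods against 405, 407 and 349 in the KO libraries. Without Slc6a9, left out after its values were seen, the list overlapped between genotypes, at 0.00211% to 0.0028% and 0.00184% to 0.00339%. The Muller glia list overlapped as well, at 0.0134% to 0.0227% and 0.0141% to 0.0196%. Of its 9 tested genes 2 were called higher in KO rods (limma), beside 11.2% of all genes. Apoe had 36, 56 and 65 in Het rods against 77, 112 and 118 in KO rods (log2 fold change 1.04, adjusted p = 0.013). Clu had 419, 532 and 572 against 615, 621 and 887 (0.55, adjusted p = 0.025). The part of the amacrine and Muller glia genes in the Sncg and Thy1 values was not tested.

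**Figure D4:**
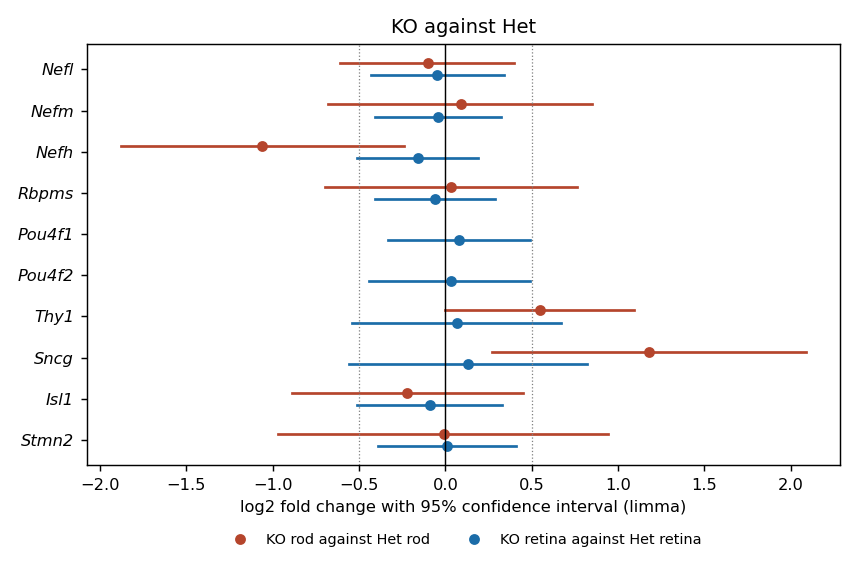
Log2 fold change of KO against Het for each member with its 95% confidence interval from limma, in rod TRAP (red) and whole retina (blue), 3 libraries against 3. Dotted lines mark 0.5 in either direction. All retina intervals span 0, and among the rod intervals Nefh lies below it and Sncg above it, with the lower end of Thy1 at 0.00. Pou4f1 and Pou4f2 were too low in rods to be tested.

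Whole retina was compared to see whether ganglion cell transcripts differed beyond the rods. In KO retina against Het retina 0 of 10 members were called (limma) and 0 had an unadjusted p below 0.05. Of 16863 genes 0% were called, 0.830% had an unadjusted p below 0.05 and 3.52% had groups that did not overlap. The members' log2 fold changes ran from -0.16 (Nefh) to 0.13 (Sncg), and the libraries of the groups overlapped for each of them. Intervals were narrow for most. For Nefl it was -0.43 to 0.34, for Rbpms -0.41 to 0.29 and for Pou4f1 -0.33 to 0.49, so a change of 1 on the log2 scale in either direction lay outside all 3. The intervals of Thy1 (-0.54 to 0.67) and Sncg (-0.56 to 0.82) were wider. In bulk RNA fewer ganglion cells and less RNA per cell cannot be told apart.

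The KO effect in rods was set against the KO effect in retina in 1 fit of all 12 libraries. None of the 10 members was called by limma, beside 0% of 17192 genes called and 3.51% at an unadjusted p below 0.05. Nefh was the 1 member below that unadjusted level (difference of log2 fold changes -1.0, SE 0.43, limma adjusted p = 0.80), and for Sncg the difference was 0.97 (adjusted p = 0.80).

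Within whole retina the members did not vary as 1 block. Thy1 had values of 2167, 2948 and 1461 in Het retina and of 2293, 1847 and 2499 in KO retina. Sncg had values of 891, 1352 and 597, and of 1044, 795 and 1134. Both were highest within their genotype in Het replicate 2 and KO replicate 3 and lowest in Het replicate 3 and KO replicate 2. This is the order of the GC trend, which was -0.24, 0.86 and -0.84 in Het retina and 0.01, -0.63 and 0.90 in KO retina. With the trend subtracted, the SD over the 6 retina libraries went from 0.35 to 0.14 for Thy1 and from 0.42 to 0.16 for Sncg on the log2 scale.

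Nefm and Nefh, with 57.77% and 58.39% GC, shared this order in Het retina but not in KO retina, where replicate 3, with the highest trend, held the lowest Nefm value and an Nefh value of 753 beside 819 and 752. Their SD went up when the trend was subtracted, from 0.16 to 0.45 for Nefm and from 0.16 to 0.31 for Nefh, while the median over all genes went from 0.28 to 0.20. KO retina replicate 3 was the lowest of the 6 libraries for 6 of the 10 members. These were Nefl (3542), Nefm (1259), Pou4f1 (262), Pou4f2 (89), Isl1 (548) and Stmn2 (967). This library also held the highest lens share of the retina libraries, 4.8%, and the highest RPE share, 0.0373%. Its value for Ttr, a transthyretin gene active in RPE, was 2298, beside 87 to 531 in the other 5 retina libraries. Apart from Nefm, the members lowest in this library had between 45.71% (Isl1) and 50.50% (Pou4f2) GC. Subtracting the trend took the SD of Isl1 from 0.20 to 0.11 and that of Stmn2 from 0.19 to 0.13. Nefl went from 0.18 to 0.15, Pou4f1 from 0.15 to 0.13 and Pou4f2 from 0.11 to 0.10. Rbpms, with 49.94% GC and not lowest in this library, went from 0.12 to 0.14. The part of lens and RPE genes in the members' values, and of the GC trend in these low values, was not tested.

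**Figure D5:**
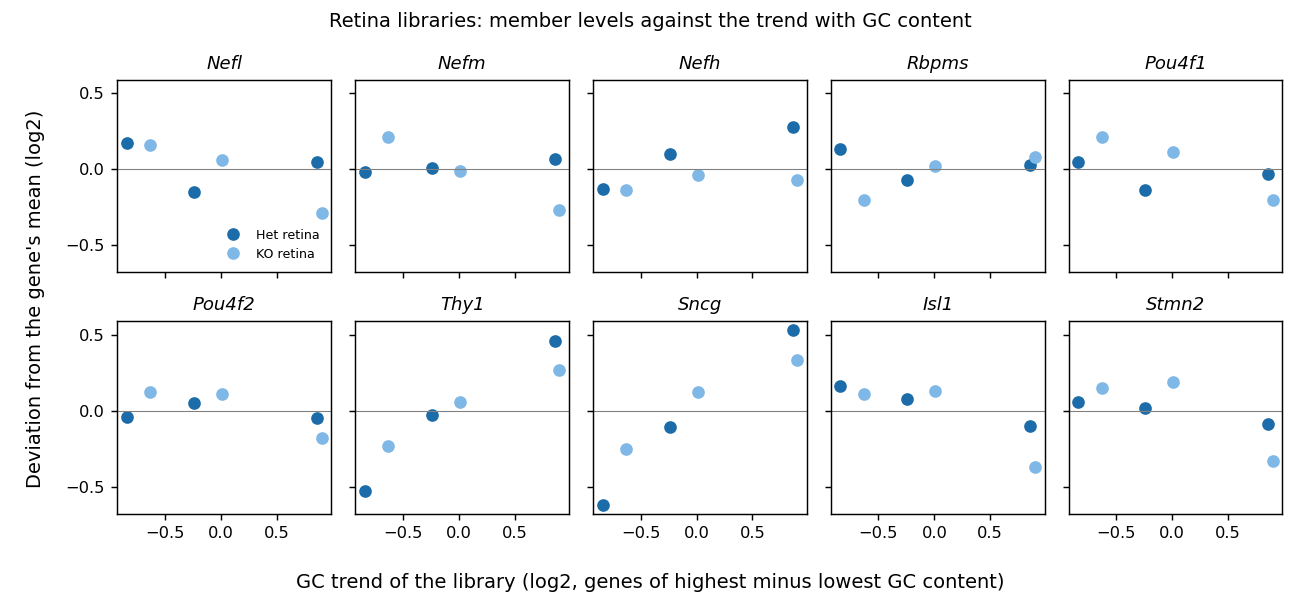
Log2 deviation of each member from its mean over the 6 retina libraries, plotted against the GC trend of the library, with Het in dark and KO in light blue. Thy1 and Sncg climb with the trend, from -0.53 to 0.46 and from -0.62 to 0.53, and Nefl and Nefm do not.

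As a description over these 6 libraries, which share the GC trend, the pair of members most alike was Thy1 and Sncg (Pearson r = 0.99), followed by Isl1 and Stmn2 (0.95) and by Pou4f2 and Stmn2 (0.93). Nefl was most like Pou4f1 (0.89) and unlike Nefh (-0.18). Among all 16863 genes, the profile of Nefl was nearest to that of Mei4 (r = 0.993), A730035I17Rik (0.988), A230072C01Rik (0.977), Hey2 (0.975) and C630043F03Rik (0.973). The mean profile of the members was nearest to Kcna1 and Entpd3 (0.978 each), Nt5dc3 (0.977), Tma7-ps (0.974) and Ngb (0.973). Kcna1 encodes an axonal potassium channel and Ngb neuroglobin.

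Other genes of ganglion cells also fell in the comparison of fractions, though not all by a like amount. Of 16 listed genes 14 could be tested in Het rods against Het retina. All 14 were called lower, beside 36.8% of all genes, with a median log2 fold change of -4.22. Slc17a6, the vesicular glutamate transporter of ganglion cells, had values of 992, 910 and 1155 in Het retina and of 24, 32 and 28 in Het rods. The acetylcholine receptor genes Chrna6 (-4.96 ± 0.21, SE) and Chrnb3 (-4.93 ± 0.16) fell by like amounts. Satb1, a chromatin organiser, had the smallest fall of the list at 1.15 on the log2 scale. In KO against Het rods 0 of 9 tested were called (limma), beside 13.1% of all genes. In KO against Het retina it was 0 of 15, beside 0% of all genes.

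Of 14 genes for other axonal and cytoskeletal proteins, 12 fell in Het rods (median log2 fold change -4.42) and 0 rose. Beside this, 36.8% of all genes were called lower there. Internexin (Ina), the fourth neurofilament subunit in central neurons, was picked out after its values were seen. It had values of 1492, 1612 and 1359 in Het retina and of 37, 32 and 32 in Het rods, a log2 fold change of -5.14 ± 0.16 (SE), so it lay with Nefl and Nefm and not with Nefh. The microtubule proteins Mapt (-4.98) and Stmn1 (-3.80) also fell, and Tubb3 fell less (-1.36). Map1b was at similar levels in both fractions, 14494, 11876 and 11773 in Het retina against 14984, 13258 and 11019 in Het rods. Beta-synuclein (Sncb), with 844, 1320 and 1010 in Het rods, was not called lower there (-0.87, adjusted p = 0.057).

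In KO rods 2 of 12 tested genes of this list rose and 0 fell, beside 11.2% of all genes called higher in this comparison. Tubb3, a neuronal tubulin, went from 172, 194 and 254 in Het rods to 420, 631 and 308 in KO rods (log2 fold change 1.16, SE 0.30, adjusted p = 0.034), and Sncb rose by 0.68 on the log2 scale (SE 0.19, adjusted p = 0.037). With the GC trend subtracted neither was called, at 0.65 for Tubb3 (adjusted p = 0.14) and -0.07 for Sncb (adjusted p = 0.63). Tubb3 also missed the threshold without Het rod replicate 1 (adjusted p = 0.11), Het rod replicate 2 (0.089) or KO rod replicate 1 (0.093). Sncb missed it without Het rod replicate 1 (0.091), Het rod replicate 3 (0.093), KO rod replicate 1 (0.090) or KO rod replicate 2 (0.084).

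Of 11 genes that carry, crosslink or modify neurofilaments, 8 fell in Het rods, beside 36.8% of all genes. In the other direction 0 passed, and the median log2 fold change was -1.04. The kinesin genes Kif5a (-4.59 ± 0.18, SE) and Kif5c (-4.31 ± 0.14) fell most, and the linker gene Dst (-1.56 ± 0.10) and the dynein heavy chain gene Dync1h1 (-1.04 ± 0.17) fell less. In KO against Het rods 1 of 11 rose, beside 11.2% of all genes called higher. This was Plec, the gene for the crosslinker plectin, with 29, 41 and 31 in Het rods against 77, 87 and 55 in the KO libraries (log2 fold change 1.14, SE 0.25, adjusted p = 0.0081). With the GC trend subtracted it was 0.39 (adjusted p = 0.25) and not called. In KO against Het retina 0 of 11 were called (limma), beside 0% of all genes.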

How the data were processed

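RNA was measured in 12 libraries, 3 each of Het and KO whole retina and rod TRAP, grouped by the genotype and tissue in the labels. The submitters' processing notes name CASAVA 1.8.2, HISAT2, DESeq2, edgeR and build GRCm39, without roles or order. The authors deposited 1 table of whole numbers, a signal proportional to reads in which each library had been multiplied by 1 factor, fraction by fraction. This was inferred from the nearly equal totals and from gaps among low integers, and is not stated in the sources used here. A count model was planned but could not be used on such values.

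Values were scaled with TMM factors (trims of 30% and 5%, own code), and a pseudocount of 2 was added before taking log2. limma 3.58.1 in R 4.3.3 was run with its trend and robust options on all genes with a scaled value of at least 10 in at least 3 libraries and a sum of at least 15, using only the groups compared, with the interaction over all 12. Benjamini-Hochberg adjustment covered all genes tested, and calls were made at an adjusted p of less than 0.05 with fold changes beyond 0.5 on the log2 scale. Simulated data tested the code, with 13055 genes drawn for KO against Het rods and 200 of them shifted by 1 on the log2 scale. Of these 82% were recovered, and 7.34% of calls were false. The draws gave every gene the same dispersion and held no GC trend, so these figures do not describe the power for the members. Replicate numbers in the titles paired the fractions of Het mice, with correlations of deviations of 0.47, 0.41 and 0.25 between same-numbered libraries.

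Transcript length, GC content, positions and sequences come from GENCODE M21 on GRCm38, matched by Ensembl identifier, whose models may differ from those the authors counted on. GC content was known for 98.3% or more of the genes in each comparison, and its trend was smoothed by lowess with a span of 0.3. Python 3.11.15, pandas 2.3.3, NumPy 2.4.6 and matplotlib 3.10.9 were used for tables and plots. Members and lists were chosen with earlier results of these data known. Named were all members, Ptpn11, at most the 4 genes of a list highest in Het retina, those of a list called between genotypes, and the 5 genes nearest in profile. Among the called genes was also Rom1 of the rod list, at 0.53 on the log2 scale in KO against Het rods (limma, adjusted p = 0.02). Thoc5, Gtf2e2, Ina, Ttr and Opn4 were named, and the lists without Otx2 or Slc6a9 added, after their values were seen. Alternatives covered scaling, pseudocounts of 0.5 and 5, filters, empirical Bayes options, GC content, a replicate block, 1 fit of all libraries and leaving out each library.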

Additional observations from a re-analysis of the deposited data

How the results depend on the processing

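For the fall of the members in rod TRAP against retina, all 151 Het and 152 KO values under another scaling, pseudocount, filter, block, fit or set of libraries kept direction and call, with Nefh between -2.67 and -1.80 in Het and between -3.64 and -2.75 in KO. With the replicate block 10 of 10 members stayed called in each genotype. TMM-scaled values put the share left in rods at 3.98% in Het and 3.85% in KO, in place of 2.99% and 2.65% from library totals. Over all genes, 9376 calls in Het became 5082 when each library had to reach 10 and 5335 without Het retina replicate 1, and 10033 calls in KO became 5629 with that filter and 5799 and 6413 without KO retina replicate 1 or 2. Fewer genes were tested under each of these settings.

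In KO against Het rods, 1 member was called without the low-value filter, beside 7.31% of all genes. With the replicate block 2 were called (Nefh, adjusted p = 0.022, and Sncg, adjusted p = 0.018, limma), beside 14.4% of all genes. The cause was not tested. Leaving out 1 library gave 0 to 1 members called, beside 6.89% to 15.1% of all genes. Same-numbered libraries did not pair there (correlations of 0.18, 0.03 and 0.03), nor in KO rods against KO retina (0.33, -0.01 and 0.18) or KO against Het retina (0.40, -0.59 and -0.14). The rise of Sncb became -0.07 with the GC trend subtracted. The call of Tubb3 was lost with the block (adjusted p = 0.13), and the calls of Tubb3 and Sncb were lost without the low-value filter (0.070 and 0.058), with plain empirical Bayes (0.059 and 0.077) and in 1 fit of all libraries (0.18 and 0.29), where Plec was lost too (0.21). Over all genes, 1710 calls became 387 with the GC trend subtracted, 922 with plain empirical Bayes, 887 without Het rod replicate 1, 1100 without KO rod replicate 2 and 0 in 1 fit of all 12 libraries. Removing rod-depleted genes, as the study did, left 0 members to test. Pooled over KO against Het in rods, in retina and the difference of both, 67 of 494 member values had the other sign, none beyond 0.42 on the log2 scale, and 18 of 127 did so in rods alone. Pou4f1 and Pou4f2 had at most 10 estimated reads in any rod library.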
